A study of Mus musculus with 8 samples.

Results

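The genes described here are meiotic cohesin, recombination and DNA repair genes, taken by name from 4 lists of N6-methyladenosine (m6A) peaks. A gene was a member if its symbol in any list began with Smc, Stag, Rad, Msh, Mlh, Brca, Fanc, Hormad, Syce, Tex, Xrcc or Mcm followed by a digit or a letter from a to m, or was Atm, Atr, Mdc1, Trp53bp1 or Meiob. This gave 62 protein-coding genes of the 8733 genes with a peak in any list, out of 53465 genes in the count table. No gene with a peak matched Hormad or Meiob. The choice is by name, not by function: 17 members are named Tex for testis expression, and only Tex15 among them was grouped here with a repair pathway. Radil and Rad54l2 were caught by spelling alone and stand as a group of their own.

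The study isolated PA and RO cells from testes of C57BL/6 mice, 12 weeks old, either wild type (WT) or Alkbh5-/- (KO). By the series title these are pachytene spermatocytes, cells of meiotic prophase, and round spermatids, haploid cells formed by meiosis. Alkbh5 encodes an enzyme that removes m6A from RNA. Methylated RNA immunoprecipitation sequencing compares fragments bound by an antibody against m6A with the unselected fragments, called the input. The 8 samples comprised 1 input and 1 immunoprecipitated library for each genotype and cell fraction, so each group held 1 library, no difference below has a replicate check, and no test was made. The labels do not give the number of animals behind a library or how the cells were isolated.

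Meiotic cohesin is a ring built from a pair of SMC subunits, a kleisin and a STAG subunit, and it holds sister chromatids together and organises the chromosome axis. In meiotic prophase, programmed double-strand breaks are resected and repaired on the homologous chromosome by strand-exchange proteins, which BRCA2 loads onto DNA, while the synaptonemal complex joins the homologues. ATM and ATR are the kinases that signal DNA breaks and stalled forks, and MDC1 and 53BP1 (gene Trp53bp1) act with them at marked chromatin.

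Input libraries held 13147239 counts in WT PA and 12084838 in WT RO, against 9921365 in KO PA and 10152198 in KO RO, and the members took between 0.639% (WT PA) and 0.791% (KO RO) of them. Counts were turned into counts per unit of library size (CPM) scaled by trimmed-mean (TMM) factors, and ratios are given as log2 with 95% exact binomial intervals. These intervals, and the Wilson intervals on shares, cover counting error only. The cell labels were set against markers. The summed CPM of 5 of 12 listed pachytene markers with a symbol was 2773 in WT PA and 2387 in WT RO, against 1438 in KO PA and 1645 in KO RO. That of 9 of 14 round spermatid markers was 324 (WT PA), 646 (KO PA), 627 (WT RO) and 1115 (KO RO). Below, 4 values given without labels stand in this last order. None of these markers was at 0 in any library, so each fraction carried markers of both cell types. The lower pachytene sum of the KO libraries lay mostly in Sycp2 (1777, 826, 1518 and 930 CPM) and Ybx2 (469, 131, 378 and 167). Sycp1 (360, 339, 364 and 434) and Tbpl1 (61.5, 57.9, 46.4 and 55.3) were slightly lower in KO in PA and higher in KO in RO. The other marker, Mlh3 (106, 84.6, 79.7 and 58.2), is also a member. The round spermatid markers also differed in direction. Prm2 (80.7, 190, 106 and 341), Akap4 (25, 117, 78.4 and 232), Odf1, Tnp2, Tssk1 and Tssk2 were higher in KO in both fractions. Acr (43.9, 31.3, 73.4 and 47.9) and Acrv1 (54.7, 51.3, 136 and 77.6) were lower in KO in both. Catsper1 (62.8, 77.8, 130 and 75.1) was higher in KO in PA and lower in RO. In bulk RNA, fewer cells of a type and less RNA per cell cannot be told apart. Alkbh5 was not analysed here, so its counts give no check of the genotype labels. Genes with a peak only in the list named KO PA were higher in the KO RO input (median 0.09 on the log2 scale from the mean of each gene) than in the KO PA input (0.03), so the list names could not be checked in that case.

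The 62 genes held 313 peaks: 68 in 39 genes in WT PA and 73 in 39 genes in WT RO, against 90 in 40 genes in KO PA and 82 in 42 genes in KO RO. The share of members with a peak was 62.9%, 64.5%, 62.9% and 67.7%, against 53.9%, 69.7%, 66.4% and 63.9% of the 8733 genes. Peaks were spread unevenly. Brca2 and Tex15 held 34 peaks each, together 21.7% of all member peaks, and 21 members had 1 peak in all lists together. The mean number of peaks per gene with a peak was 1.74 (WT PA), 2.25 (KO PA), 1.87 (WT RO) and 1.95 (KO RO), against 1.59 to 1.63 over all genes of a list. These member means include Brca2 and Tex15 and do not describe a typical member. Without both genes, member peaks numbered 53 (WT PA), 68 (KO PA), 56 (WT RO) and 68 (KO RO). Each peak carries the authors' own fold enrichment of immunoprecipitated over input RNA and false discovery rate. Each list has its own libraries and depth, so folds of different lists are set side by side below as descriptions, and no change is read from them. The median fold of member peaks was below that of all peaks in WT PA (9.26 against 11.7), KO PA (10.9 against 13) and KO RO (7.47 against 12.1), and above it in WT RO (16.1 against 15.1). Member peaks that did not reach a false discovery rate under 0.05 numbered 3, 1, 6 and 3 in the 4 lists.

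**Figure D1:**
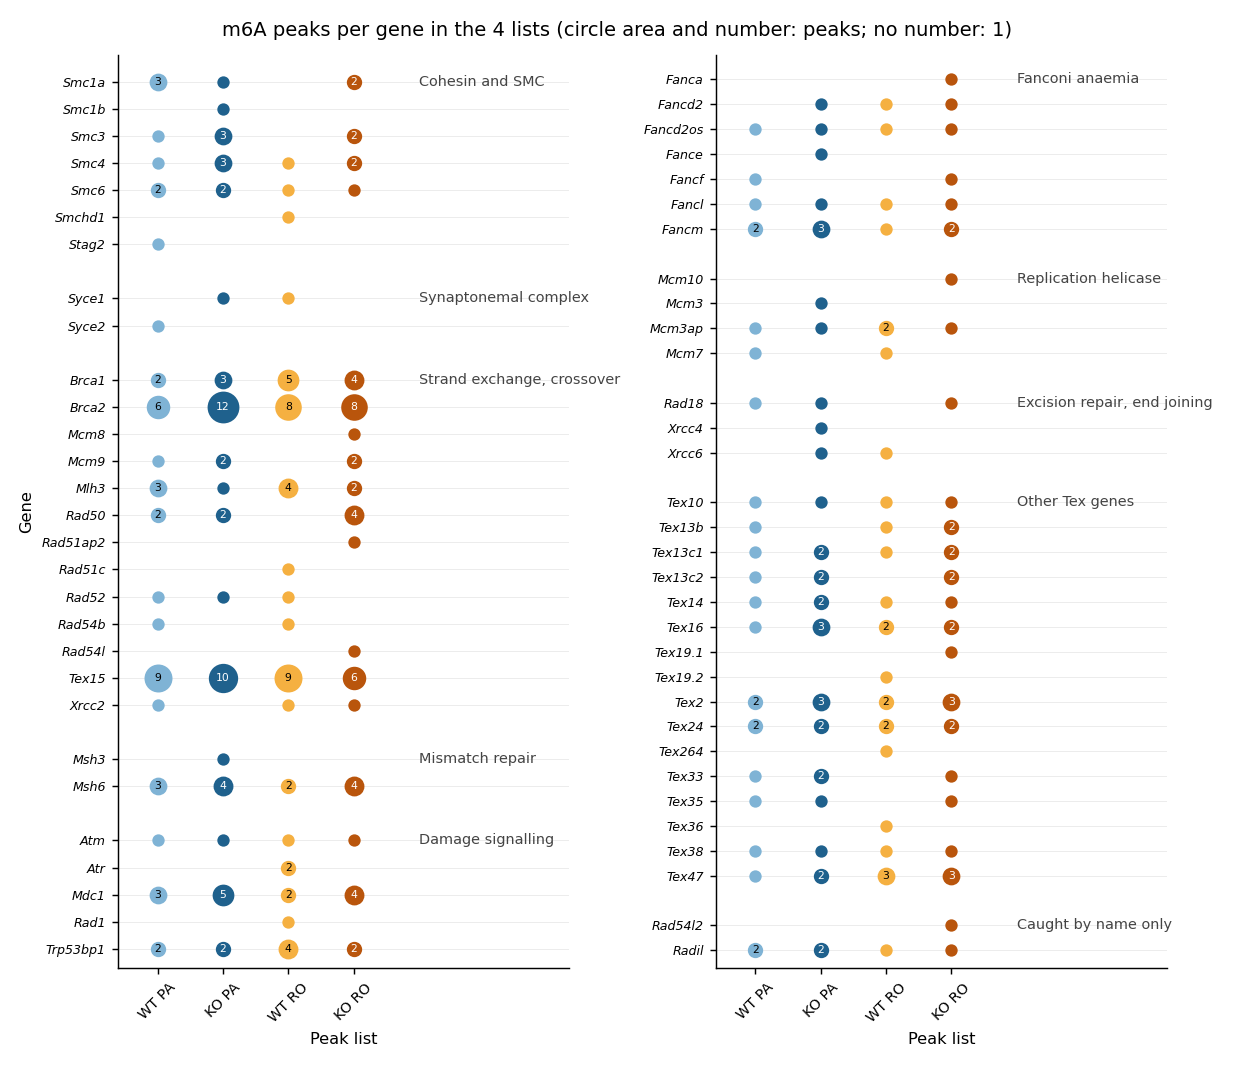
Number of m6A peaks of each of 61 of the 62 genes (rows, grouped by role) in the 4 peak lists (columns); circle area and the number inside give the peaks, and a circle without a number is 1 peak. Brca2 and Tex15 have peaks in every list, with 12 listed Brca2 peaks in KO PA, while Atr, Smchd1 and Tex36 have peaks in WT RO alone.

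Strand exchange and crossover genes carried the most peaks of any group. The 13 genes held 117 peaks, of which 108 were annotated to coding sequence. Their median fold was 10.1 within WT PA, 11 within KO PA, 14.7 within WT RO and 6.47 within KO RO. Peaks of 1 gene often stood side by side, so peaks that overlapped across lists were chained into regions. Brca1, which acts in end resection and in the loading of recombinases, had 14 peaks in 5 coding regions within 2994 bp of chromosome 11 (chr11:101523438-101526431, mm10), each within a single exon block. The WT PA and WT RO lists held 2 and 5 of them and the KO PA and KO RO lists 3 and 4. The WT RO peak at chr11:101526312-101526431 had a false discovery rate of 0.2 and was the only peak of its region. The Brca1 region at chr11:101525593-101526192 was in all 4 lists and included the member peak with the highest fold in WT PA (104). Brca2 had 6, 12, 8 and 8 peaks in WT PA, KO PA, WT RO and KO RO, forming 11 regions on chromosome 5 (chr5:150535465-150569477), of which 4 were in all lists. In 1 of these 4, at chr5:150540333-150540542, the WT PA peak had a false discovery rate of 0.06. The region at chr5:150569178-150569477 holds a pair of overlapping peaks with the same fold and false discovery rate in WT PA (11.2) and another such pair in KO PA (18). Counted once, Brca2 had 5 peaks in WT PA, 11 in KO PA and 32 in all. No other member had such a repeat, and 0.347% of all peaks were repeats. The Brca2 region at chr5:150543059-150547956 had folds of 43.2 (WT PA), 53.8 (KO PA), 55.2 (WT RO) and 40.2 (KO RO). The 3 regions found in both KO lists or in KO PA alone and in neither WT list start at 150542820, 150548613 and 150554221. Their folds were 7.52, 5.14 and 6.77 in KO PA, and those of the first and second 3.35 and 4.16 in KO RO.

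Tex15, a factor required for recombination and for transposon silencing in male germ cells, had 9, 10, 9 and 6 peaks in the WT PA, KO PA, WT RO and KO RO lists. They formed 8 regions on chromosome 8 (chr8:33570556-33582651), and 5 of these were in all 4 lists. The 2 Tex15 peaks at chr8:33581662-33582591 (fold 210) and chr8:33571215-33572444 (fold 174) were the first and the third of all member peaks in WT RO by fold. The 9 Tex15 peaks of WT RO covered 4745 exonic bases and the 9 of WT PA 2618, while the 6 of KO RO covered 4022. The number of peaks therefore does not give the length covered, and it is not a number of methylated sites. Mlh3, an endonuclease subunit needed for crossovers, had 4 regions within 2429 bp (chr12:85266178-85268606). The one at chr12:85267287-85268246 was in all lists, the other 3 in WT lists only. Rad50, a subunit of the complex that starts end resection, had 2, 2, 0 and 4 peaks in WT PA, KO PA, WT RO and KO RO. Its KO PA peak at chr11:53668194-53674906, which joined 4 exon blocks, had a fold of 118. The KO RO peak of the same region, which joined 3 blocks, had a fold of 6.07. Rad51ap2, Rad54l and Mcm8 had 1 peak each, all in KO RO. The fold was 6.99 for Rad51ap2 and 3.49 for Rad54l, with a false discovery rate of 0.05 and 0.028.

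**Figure D2:**
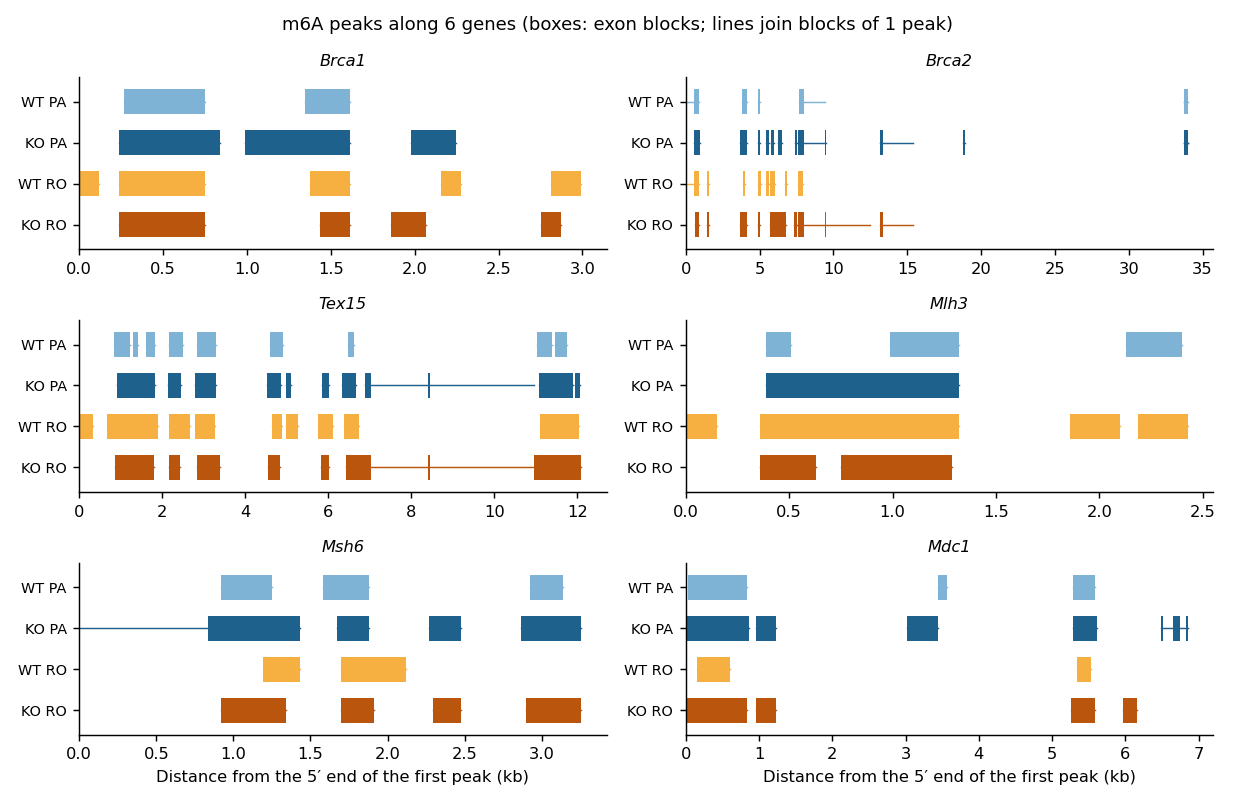
Exon blocks of m6A peaks along Brca1, Brca2, Tex15, Mlh3, Msh6 and Mdc1 in the 4 peak lists, as distance in kb from the 5′ end of the first peak in the direction of transcription; lines join the blocks of 1 peak. Brca1 shows its 2 shared regions in every list, and the Brca2 regions past 10 kb are in PA lists or KO lists only.

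Most peaks of the cohesin and SMC genes were joined across exons. The 7 genes held 28 peaks, of which 25 were coding and 24 joined 2 to 5 exon blocks across introns. Their median fold was 2.65 within WT PA, 2.63 within KO PA and 2.6 within KO RO, and 18.8 over the 3 peaks of WT RO. Over all members, 26.5%, 30%, 11% and 22% of peaks joined blocks in WT PA, KO PA, WT RO and KO RO, against 13.8%, 21.2%, 13.4% and 16.1% of all peaks. Smc1a and Smc3 encode the ATPase subunits of cohesin. Smc1a had 3 peaks (WT PA), 1 (KO PA), 0 (WT RO) and 2 (KO RO). The KO PA peak (chrX:152026410-152029042, 5 blocks, fold 18.7) overlapped a pair of WT PA peaks and both KO RO peaks. Smc3 had 1, 3 and 2 peaks in WT PA, KO PA and KO RO and none in WT RO, with a fold between 1.64 and 5.31. Smc4, a condensin subunit, had peaks in all lists: 1, 3, 1 and 2. Its WT RO peak lay in the 5′ untranslated region with a fold of 22.9, while its 6 other peaks were coding with a fold between 1.3 and 2.63. Smc6, of the SMC5/6 repair complex, had peaks in all lists. Smc1b, the meiosis-specific partner of Smc3, had a single peak in KO PA (fold 2.97). Stag2 had 1 peak in WT PA and Smchd1, a chromatin silencer of the SMC family, 1 in WT RO.

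The synaptonemal complex was represented by Syce1 and Syce2, subunits of its central element, with 3 peaks in all. Syce1 had a 3′ untranslated peak in KO PA (chr7:140777497-140778234, fold 6.02) and another in WT RO (chr7:140777467-140777676, fold 7.13). Syce2 had a 5′ peak in WT PA alone. Of the mismatch repair genes, Msh6 had 3, 4, 2 and 4 peaks in WT PA, KO PA, WT RO and KO RO, which formed 4 coding regions, 2 of them in all lists. Msh3, a mismatch recognition gene, had 1 peak, in KO PA.

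Damage signalling genes had almost only coding peaks, 30 of 31. Atm had a peak in every list, at nearly the same place (chr9:53439658-53440059 in 3 lists and chr9:53439718-53439928 in WT PA), with folds of 39 (WT PA), 44.4 (KO PA), 24.9 (WT RO) and 14.7 (KO RO), each within its own list. Atr, by contrast, had 2 peaks in WT RO and none elsewhere. Mdc1 had 3, 5, 2 and 4 peaks in WT PA, KO PA, WT RO and KO RO, in 6 regions over 6854 bp. Trp53bp1 had 2 regions, both in all lists. The one at chr2:121211816-121216135 had folds of 56.3 (WT PA), 51.8 (KO PA), 6.63 (WT RO) and 41.7 (KO RO). The other, at chr2:121235649-121236847, was 1 peak in 3 lists and 3 peaks in WT RO. Rad1, a subunit of the checkpoint clamp, had 1 peak, in WT RO.

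The Fanconi anaemia genes, whose products act on crosslinked DNA, were grouped here by the name Fanc. Of their 23 peaks 15 lay in 3′ untranslated regions, all in 3 of the 7 genes: 8 in Fancm, 4 in Fancd2os and 3 in Fancd2. Fancd2os is named for its place beside Fancd2 and not for a role in the pathway. Fancm, the helicase that anchors the pathway, had 3 regions annotated as 3′ untranslated, of which that at chr12:65106178-65106568 was in all lists. Fancd2os had the next highest fold of a member in KO PA after Tex2 (141, chr6:113596879-113597501). Fancd2os lies on the opposite strand from Fancd2, and the Fancd2 peaks of KO PA, WT RO and KO RO (chr6:113596897-113597017) fall within the stretch that Fancd2os peaks cover in KO PA. Whether strand was used in the counting is not given in the sources used here, so reads of this pair may not be told apart. Fancl, a ubiquitin ligase, had a 5′ peak in all lists, with a fold of 209 in WT RO. Among genes named Mcm, the replicative helicase subunit gene Mcm7 had a 5′ peak in both WT lists and in neither KO list. Mcm3ap, which was caught by its name and encodes an mRNA export factor and not a helicase subunit, had a region in all lists. Rad18, which acts in translesion synthesis, had a region in 3 lists, all but WT RO (chr6:112627212-112627750). The end joining gene Xrcc4 had 1 peak, in KO PA, and Xrcc6 1 in KO PA and 1 in WT RO.

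The 16 other Tex genes held 74 peaks, 56 of them coding. Tex2 had a region in all lists (chr11:106567010-106567520) with folds of 25.7 (WT PA), 196 (KO PA), 56.5 (WT RO) and 53.1 (KO RO). Its KO PA peak had the highest fold of any member in that list. Tex14, which is required for the intercellular bridges of germ cells, had a region in all lists, as did Tex10, Tex24 and Tex47. Tex13c1 and Tex13c2, and likewise Tex19.1 and Tex19.2, are close copies, so how reads were divided within each pair is uncertain.

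Member peaks lay in coding sequence more often than peaks at large. The coding share was 77.9% (95% Wilson interval 66.7 to 86.2) in WT PA and 72.6% (61.4 to 81.5) in WT RO, against 80% (70.6 to 87) in KO PA and 78% (67.9 to 85.6) in KO RO. Among peaks of all protein-coding genes it was 63.5%, 61.5%, 57.4% and 59.7%, below each interval. The 3′ untranslated share of member peaks was 7.35%, 8.89%, 12.3% and 9.76%, against 23.3%, 24.3%, 28.3% and 26.9%. Peaks of 1 gene are not independent. Without Brca2 and Tex15 the coding share was 71.7%, 73.5%, 64.3% and 73.5%, a setting chosen after seeing the data. Counted by gene, 69.2%, 70%, 56.4% and 71.4% of members with a peak had a coding one, close to the 62.7%, 62.3%, 57.7% and 59.8% of all protein-coding genes with a peak. A 3′ untranslated peak was found in 10.3% (4.06 to 23.6), 15% (7.06 to 29.1), 23.1% (12.6 to 38.3) and 16.7% (8.32 to 30.6) of members with a peak, against 32.6%, 34.7%, 39.6% and 37%. By gene, the Wilson intervals of the coding share of members were 53.6 to 81.4, 54.6 to 81.9, 41 to 70.7 and 56.4 to 82.8. The share of all protein-coding genes thus lay within the member interval in each list, while the 3′ untranslated share of members was below the background in each.

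**Figure D3:**
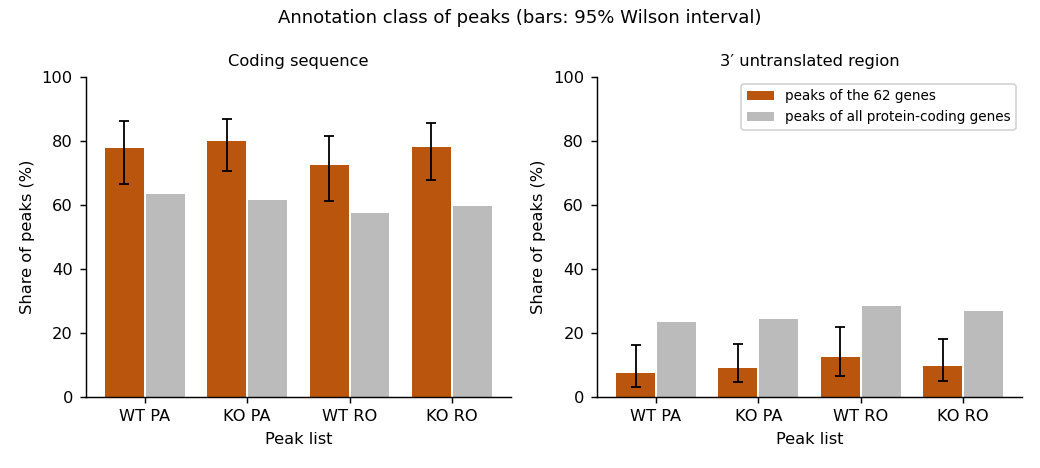
Share of peaks (percent) in coding sequence (left) and 3′ untranslated regions (right) for the 62 genes and for all protein-coding genes in each of the 4 peak lists; bars on the member shares are 95% Wilson intervals for counting error. Member peaks are 72.6% to 80% coding in the 4 lists, and 7.35% to 12.3% of them lie in 3′ untranslated regions.

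Peaks in 6 genes reached the window around a transcription start for which sequence was at hand (250 bases before to 50 after the start; RefSeq, GRCm38.p6, 63 windows of 51 members). These were Tex47, Mcm7, Radil, Syce2, Fancl and Xrcc6. They are shown because the 5′ peaks of Mcm7, Fancl and Tex47 differ between lists in presence or extent. In the stretch of each window that a peak covers, the motif GGACT, a common form of the m6A sequence context, and its core GGAC were sought on the transcript strand and on the other strand, GGACT matches being also GGAC matches. On the transcript strand GGACT was found once, in Fancl, and GGAC in Fancl, Tex47 and Xrcc6. Of 32851 RefSeq windows, 18% held GGACT in the same stretch as that of Fancl, 30.8% held GGAC in that of Tex47, and 30.9% in that of Xrcc6. On the other strand GGAC was found once each in Fancl, Mcm7 and Radil, the last as GGACT, and Syce2 had no match on either strand. The matches on the transcript strand follow with 30 bases each, and capitals mark the match inside a peak that each line is shown for, at chr11:26387026-26387055 (Fancl), chr5:7304114-7304143 and chr5:7304160-7304189 (Tex47), and chr15:82016119-82016148 and chr15:82016193-82016222 (Xrcc6), all on the plus strand.
Fancl: ccgtcaggcctgtGGACTtgtgagtgatct
Tex47 first: aggacagttgaggGGACagggcactggcag
Tex47 second: ggtcaagccaagaGGACctcagacctcaaa
Xrcc6 first: ccGGACacccgcgaccggcaacgactactg
Xrcc6 second: ggggcaggggcggGGACgcactttcacgca
The Fancl match lay inside the WT PA, KO PA and WT RO peaks and outside the KO RO peak, which starts at 26387060. Both Tex47 matches lay inside the KO PA, WT RO and KO RO peaks of that gene (chr5:7304119-7304269), which has no 5′ peak in WT PA. The first Tex47 stretch holds another GGAC near its left end, left in lower case because it lies before the start of these peaks at 7304119. Each window holds 250 bases before the RefSeq start, and the Fancl match, the first Tex47 match and both Xrcc6 matches lie there. Only the second Tex47 match lies after the start. Whether the matches before it are part of a transcript was not checked. A match describes these letters and does not mark a methylated base.

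Sharing between genotypes was close to that of all peaks. Of the 68 WT PA member peaks, 57 (83.8%) overlapped a KO PA peak by at least 1 bp of exon on the same strand, against 79.7% of all WT PA peaks. Of the 90 KO PA peaks, 52 (57.8%) overlapped a WT PA peak, against 56.6% of all. In RO, 45 of 73 WT peaks (61.6%, all 55.9%) and 43 of 82 KO peaks (52.4%, all 58.9%) had a counterpart in the other genotype. The Wilson intervals of these 4 member shares span the shares of all peaks. KO PA member peaks without a WT PA counterpart had a median fold of 6.33, against 14.1 for those with one, while the 28 unshared WT RO peaks had 16.1, against 16.5. With a reciprocal overlap of 50%, the share of WT PA peaks with a counterpart was 61.8%, and that of KO RO peaks 37.8%.

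The 126 peak regions of the members were in all 4 lists in 31 cases (24.6%, against 23.9% of 14908 regions of all genes). A further 18 were in WT RO alone (14.3%, against 18.9%), 11 in both KO lists only (8.73%, against 7.69%) and 3 in both WT lists only (2.38%, against 2.11%). Counted by gene, 23 of the 62 members (37.1%) had a peak in all lists, against 34.4% of all genes with a peak. These 23 include Atm, Brca1, Brca2, Mdc1, Mlh3, Msh6, Smc4, Smc6, Tex15 and Trp53bp1. The 8 members with a peak in every list but WT RO were Mcm9, Rad18, Rad50, Smc1a, Smc3, Tex13c2, Tex33 and Tex35 (12.9%, against 6.69%). Without the WT RO list, a setting chosen after seeing the data, 31 members (50%) had a peak in the 3 other lists, against 41.1%. The 8 members with a peak in WT RO alone (12.9%, against 14.3%) included Atr, Rad1, Rad51c, Smchd1, Tex19.2, Tex264 and Tex36. Another 7 members had one in KO RO alone, which were Fanca, Mcm10, Mcm8, Rad51ap2, Rad54l, Rad54l2 and Tex19.1 (11.3%, against 5.31%). Mcm7 and Rad54b, a strand exchange motor, had a peak in both WT lists only (3.23%, against 2.32%). The Rad54b coding peak at chr4:11583891-11584101 had the same ends in both lists. Both lists also give a peak of the same start and fold under the gene Fsbp, on the same strand, so that it cannot be assigned to Rad54b alone. No member had peaks in both KO lists and in neither WT list (0 of 62), against 6.87% of all genes. A count of 3 in place of 0 would be 4.84%, a rough ceiling for counting error only. Likewise 0 members had peaks in both PA lists only or in both RO lists only, against 2.03% and 2.19% of all genes. These differences were not tested.

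Genotype ratios of the input counts were mostly under 2-fold. In PA, 14 of the 62 members (22.6%) differed at least 2-fold between KO and WT, 11 higher and 3 lower in KO. Of all genes kept (CPM of 1 or more in either library) 43.7% did, and of genes with a symbol 27%, with 13% higher and 14.1% lower. In RO, 8 of 61 members (13.1%) did, 6 higher and 2 lower, against 42.1% of all genes and 27% of those with a symbol (13.3% higher, 13.7% lower). The background depends on counts, since ratios spread more at low counts. Where either library reached a CPM of 10, 10 of 57 members passed 2-fold in PA and 6 of 58 in RO, against 22.4% and 22.1% of genes with a symbol. The median log2 ratio of the members was -0.02 in PA and 0.00 in RO. Over all genes it was 0.04 in both, and over genes with a symbol -0.05 in both. Scaling by total counts in place of TMM moved the all-gene median to 0.35 in PA and the member median to 0.26, and the PA split to 13 higher and 1 lower; the values below are relative to TMM.

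**Figure D4:**
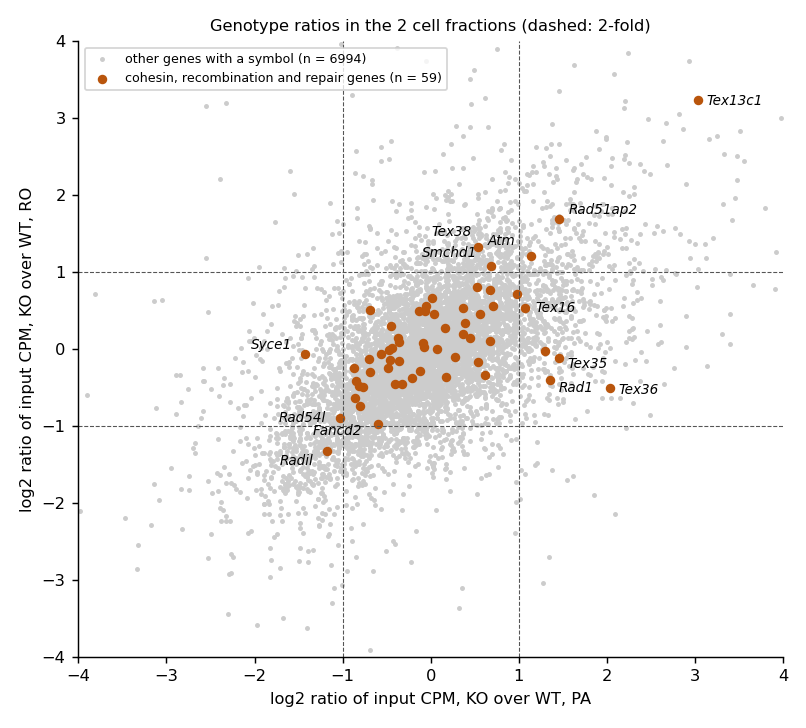
log2 ratio of TMM-scaled input CPM, KO over WT, in PA (x axis) and RO (y axis) for members (orange) and other genes with a symbol (grey), with a CPM of at least 10 in any library; dashed lines mark 2-fold, and genes beyond 4 on either axis are not drawn. Tex13c1, Rad51ap2 and Atm lie past 2-fold in the upper right and Radil in the lower left, while Syce1 and Tex36 are past it in PA only.

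Of the damage signalling genes, Atm (ENSMUSG00000034218) alone was past 2-fold between genotypes in both fractions. It had 1005 counts in WT PA and 936 in WT RO, against 2038 in KO PA and 2056 in KO RO. Both KO libraries were high and both WT libraries low, with no overlap. The log2 ratio of KO over WT was 1.14 (1.03 to 1.25) in PA and 1.21 (1.1 to 1.32) in RO, and the cell fractions of a genotype differed by -0.08 in WT and -0.01 in KO. Its sister kinase did the reverse to a smaller degree: Atr had 6501, 4279, 5362 and 4297 counts in WT PA, KO PA, WT RO and KO RO (log2 -0.49 in PA and -0.25 in RO). Mdc1, with 6897, 3626, 6237 and 4241 counts, was also lower in both KO libraries (-0.81 and -0.48), and Trp53bp1 was so by -0.12 and -0.28. In these 4 genes the WT and KO libraries did not overlap, as was the case with KO above WT in 22.7% and with KO below WT in 29.9% of genes with a symbol and a CPM of at least 10 in any library. The remaining gene of the group, Rad1, had low counts of 38, 92, 135 and 97 in WT PA, KO PA, WT RO and KO RO. Its ratio was 1.35 (0.83 to 1.98) in PA and -0.40 in RO.

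Rad51ap2 had 90 counts in WT PA and 65 in WT RO, against 231 in KO PA and 204 in KO RO. Tex13c1 had 14, 119, 23 and 223. Both genes were high in both KO libraries, with log2 ratios of 1.46 (PA) and 1.69 (RO) for Rad51ap2 and 3.03 and 3.24 for Tex13c1. Radil, an adhesion gene caught by spelling, had 2255, 918, 2309 and 880 counts and was low in both KO libraries (-1.18 and -1.32). With a CPM of at least 10 in any library, Atm, Rad51ap2 and Tex13c1 were thus the 3 members of 59 (5.08%) with both KO libraries at least 2-fold above both WT libraries, against 2.48% of genes with a symbol. Radil was the only member below in the same way (1.69%, against 4.44%). Rad51ap2 (7.67, 21.4, 5.65 and 18.6 CPM) and Tex13c1 (1.19, 11, 2 and 20.4) reached a CPM of 10 only in the KO libraries. They thus passed the filter through the genotype in which they were high. Of the 3, only Atm reached it in both genotypes, so the 5.08% is a description and supports no excess. With scaling by total counts, the PA ratio of Radil was -0.89. By order alone, both KO libraries were above both WT libraries in 16 of the 59 members (27.1%, against 22.7%) and below in 18 (30.5%, against 29.9%). The summed pachytene markers, at 1438 and 1645 CPM in KO PA and KO RO against 2773 and 2387 in WT PA and WT RO, moved with the genotype through Sycp2 and Ybx2, while Sycp1 and Tbpl1 were higher in KO than in WT in RO. Their part in these ratios was not tested. Macrophage marker Csf1r also differed, with a CPM of 2.13, 12.3, 6.86 and 21.5 in WT PA, KO PA, WT RO and KO RO.

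**Figure D5:**
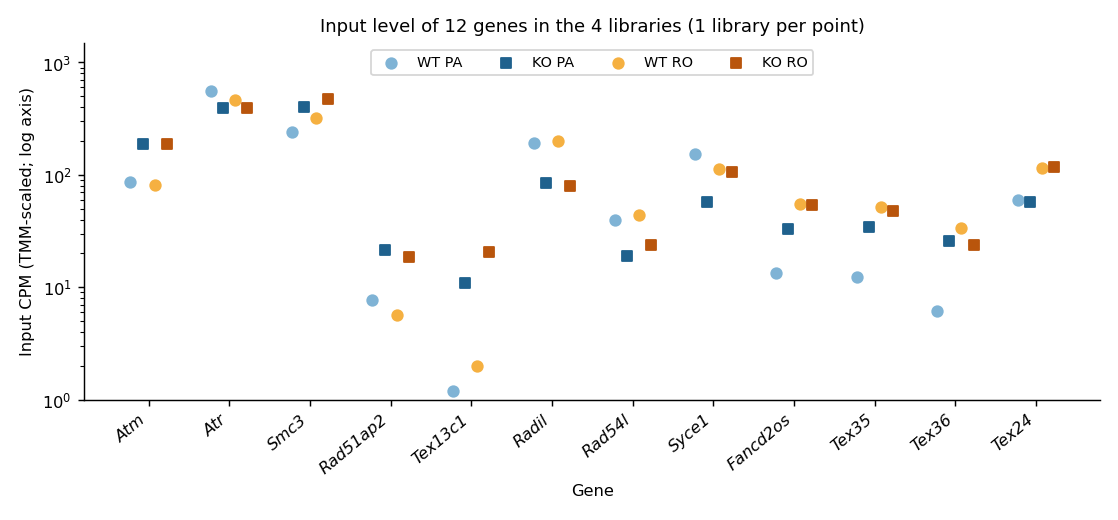
TMM-scaled input CPM (log axis) of 12 member genes in the 4 input libraries, 1 point per library; circles are WT and squares KO. Atm is at 188 CPM in both KO libraries and at 85.7 and 81.3 in WT PA and WT RO, Radil is the reverse, and Tex36 is low in WT PA alone.

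The 7 cohesin and SMC genes had a median log2 ratio of 0.07 in PA and 0.50 in RO, 5 of them above 0 in each. Smc3 had 2845 counts in WT PA and 3664 in WT RO, against 4300 in KO PA and 5133 in KO RO. It was higher in both KO libraries, with ratios of 0.71 and 0.56. Smchd1, with 1620, 2400, 970 and 1948 counts, was the only gene of the group past 2-fold, in RO (1.08, 0.97 to 1.19). Stag2 was at 0.01 in PA and 0.67 in RO, and Smc1a at -0.07 and 0.50, so that their WT RO libraries were the low ones. The summed CPM of peritubular and endothelial markers was also lowest in WT RO (395, 409, 183 and 371, for 5 of 7 with a symbol, none at 0), with Cd93 at 29.6, 49.9, 1.74 and 28.4. Their part in these ratios was not tested. Smc6 went the other way, at -0.46 and -0.14. Smc4, with between 5388 and 5680 counts in each library, was within 0.07 of 0 in both.

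Syce1 had 1810 counts in WT PA and 1292 in WT RO, against 619 in KO PA and 1170 in KO RO. The KO PA library was the low one, and the ratio was -1.43 (-1.56 to -1.3) in PA and -0.07 in RO. Among strand exchange genes, Rad54l, a recombination motor, had 461, 207, 507 and 258 counts, low in both KO libraries (-1.03 and -0.90); with total-count scaling its PA ratio was -0.74. Brca1 had 2158, 2901, 3860 and 3256 counts, so that WT PA was the low library, whereas Brca2 was at 0.04 in PA and 0.46 in RO. Tex15 had 4495, 6103, 6044 and 7859 counts and was higher in KO in both fractions (0.56 and 0.45). The 13 strand exchange genes had a median of 0.04 in PA and 0.30 in RO. Fancd2, the ubiquitinated effector of the Fanconi pathway, had 1645, 1003, 1703 and 826 counts (-0.60 and -0.97). Mcm7, a subunit of the replicative helicase, had 1000, 507, 917 and 563 counts (-0.86 and -0.63). Xrcc4 was lower in both KO libraries (-0.80 and -0.74), and Rad18 and Xrcc6 also had ratios under 0 in both fractions.

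Across 59 members with a CPM of at least 10 in any library, the genotype ratios in PA and RO, which share no library, had r = 0.64 (Pearson) and rho = 0.57 (Spearman), and 40 (67.8%) had the same sign. Across 7053 genes with a symbol r was 0.56 and rho 0.57, and 70.8% had the same sign. All genes of 1 library share its depth and preparation, so these values are descriptions.

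Most members past 2-fold between cell fractions in WT were Tex genes, 5 of 7. In WT, 7 of 61 members (11.5%) were past 2-fold between the cell fractions, all higher in RO, against 40.2% of all genes and 23.2% of genes with a symbol (12.4% higher). They were Fancd2os, Rad1, Tex13c2, Tex16, Tex35, Tex36 and Tex47. Tex36 had 72 counts in WT PA and 389 in WT RO, against 277 in KO PA and 260 in KO RO, and Tex35 had 146, 370, 594 and 522. In both, WT PA was the low library and the 3 others lay closer together. The RO over PA ratio was 2.43 in WT and -0.11 in KO for Tex36, and 2.04 and 0.48 for Tex35. Fancd2os had the same form, with 157, 359, 635 and 591 counts (2.03 and 0.70). In KO, 5 of 62 members (8.06%) passed 2-fold, against 32.7% of all genes and 14% of those with a symbol (7.36% higher, 6.66% lower). Tex24 and Tex38 were higher in RO, and Fance, Fancf and Tex19.1 lower, the last 3 with 78 counts or fewer in each library. Tex24 had 707, 615, 1330 and 1289 counts and was higher in both RO libraries (0.94 in WT and 1.05 in KO).

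The median stage ratio of the 16 Tex genes was 0.74 in WT and 0.52 in KO, against -0.08 and 0.07 for all members. Both RO libraries were above both PA libraries in 12 of 59 members (20.3%, against 15%) and below in 7 (11.9%, against 17.5%). The 12 were Brca1, Fancd2os, Rad1, Rad51c, Smc1b, Tex13c2, Tex2, Tex24, Tex264, Tex35, Tex38 and Tex47, and the 7 were Fancl, Fancm, Mcm10, Mlh3, Rad50, Rad54b and Tex10. Round spermatid markers were at 324 summed CPM in WT PA and 627 in WT RO, and at 646 in KO PA and 1115 in KO RO; their part in the stage ratios was not tested.

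Over all genes, those with a peak in KO only had the higher KO over WT input ratios and those with a peak in WT only the lower. The medians were 0.06 (KO only), -0.09 (both) and -0.23 (WT only) in PA, and 0.08, -0.06 and -0.22 in RO. The members had the same order in RO and another in PA, where the groups are small. In PA, the 8 members with a peak in KO only had a median KO over WT input ratio of -0.49, the 7 with a peak in WT only 0.01, and the 32 with both 0.06. In RO the medians were 0.10 for the 16 with a peak in KO only, -0.07 for the 13 with one in WT only and -0.02 for the 26 with both. Syce1 had its PA peak in KO, where its count was 619 against 1810 in WT. Atr, with between 4279 and 6501 counts in each library, had peaks in WT RO alone. Detection was more frequent at higher input level among all genes: in WT PA 35.1% of genes with a symbol and a CPM under 10 had a peak, and 78% of those with 300 or more. Of the members, 3 of 9 and 5 of 7 did.

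Other genes of the same pathways, from a list of 79 fixed by name, gave 48 with a symbol. Past 2-fold were 4 higher and 6 lower in the KO library in PA, and 7 higher and 6 lower in RO. These were 20.8% and 27.1% of the 48, against 27% of genes with a symbol in each. In WT 3 were higher and 1 lower in RO than in PA, and in KO 3 were higher and none lower (8.33% and 6.25%, against 23.2% and 14%). Cntd1, which is required for crossover maturation, had 2273 counts in WT PA and 1928 in WT RO, against 374 in KO PA and 499 in KO RO, and was low in both KO libraries (-2.48 and -1.87). Slx4, the scaffold of structure-specific nucleases, had 7837, 3286, 8424 and 3287 counts (-1.14 and -1.29). H2afx, the histone phosphorylated by ATM and ATR at breaks, was high in both KO libraries, with 83, 453, 251 and 492 counts. Of the 48 genes, 28 (58.3%) had a peak in all 4 lists, against 34.4% of all genes with a peak; a symbol is known here only for genes with a peak in some list.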

How the data were processed

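Per the labels' protocols, total RNA was cut with zinc chloride into fragments of 100 to 200 nt and bound with a polyclonal m6A antibody. The authors deposited raw counts of 4 input libraries per Ensembl gene, with columns matched to samples by name. They also deposited 4 peak lists, which per the file headers give each peak a p-value, the log10 of the p-value and of the false discovery rate, a fold enrichment ratio, a class and a gene name. The submitters' processing notes name cutadapt 2.5, HISAT2 2.1.0, HOMER 4.10.4 and the build mm10, with no role. The peak caller, the counting tool, its annotation and its use of strand are not given in the sources used here. Each list rests on 1 immunoprecipitated and input pair and was assigned by its name alone.

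Symbols were matched to counts by Ensembl identifier, and all 62 matched. For 1 member, values are not reported here singly, though it is in the counts. TMM factors (edgeR 4.0.16, R 4.3.3) were 0.892 (WT PA), 1.09 (KO PA), 0.953 (WT RO) and 1.08 (KO RO); log2 ratios used a prior count of 2 and genes with a CPM of 1 or more in either library. Other steps used Python 3.11.15, pandas 2.3.3, numpy 2.4.6, scipy 1.17.1 and matplotlib 3.10.9. The scripts were tested on simulated data. Peaks overlapped when exon blocks on 1 strand shared at least 1 bp, and overlapping peaks were chained into regions across lists. Positions are 1-based. Low counts limit precision: between 5 (KO RO) and 9 (WT PA) members had a CPM under 10.

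The members and gene lists were chosen with earlier results of these data known. Named in full were, per role group, members past 2-fold alike in both fractions or genotypes, those with the most peaks or counts, those past 2-fold with 100 counts or more, and the peaks with the highest fold. Figures and Cntd1, Slx4 and H2afx were chosen after values were seen. Alternatives were other scaling, filters, prior counts and overlap rules, and, added after seeing the data, repeated peaks counted once. No genome was given, so the sequence motif in peaks, planned for all member peaks, was sought only where a peak reached a RefSeq promoter window (GRCm38.p6).

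The marker lists were pachytene spermatocyte, round spermatid, spermatogonia (4 of 8 with a symbol, summed CPM 33.4, 63.9, 24 and 47.2 in WT PA, KO PA, WT RO and KO RO), Sertoli (5 of 10: 254, 328, 180 and 206), Leydig (2 of 7: 136, 40, 41.5 and 16.7), peritubular and endothelial (5 of 7: 395, 409, 183 and 371), and macrophage and blood (1 of 7, Csf1r).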

Additional observations from a re-analysis of the deposited data

Results flagged for a closer look

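In 2 genes the KO library was at least 2-fold above WT in PA and at least 2-fold below it in RO; the difference was not tested. Fancf, a subunit of the Fanconi core complex, had 11 counts in WT PA and 9 in WT RO, against 47 in KO PA and 1 in KO RO, with log2 ratios of KO over WT of 2.02 (1.24 to 3.31) in PA and -1.83 (-8.55 to -0.25) in RO. Tex19.1 had 35 and 29 counts in the WT and 78 and 8 in the KO libraries, PA first, with ratios of 1.22 (0.68 to 1.89) and -1.57 (-3.13 to -0.62). Both had low counts in each library, and Tex19.1 has a close copy, Tex19.2, whose ratios were -0.85 and -0.41. In PA, among all genes whose counts summed to between 80 and 160, 48.7% were past 2-fold. That range holds Tex19.1 but not Fancf, whose counts were lower, and the share is for PA alone. The share of all genes with such opposite ratios in PA and RO was not computed, so the count of 2 is not a result about the members.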

How the results depend on the processing

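Of 124 alternatives for counts, shares and median log2 ratios, 106 kept the value by the rule set for each kind. The rules were within 1.5 times the count, within the counting interval of the share, or within an interval around the member median. The interval for the median was wide, from -0.36 to 0.39 for KO over WT in PA. Every median therefore stayed inside, also that in PA, which went from -0.02 to 0.26 with total counts. Without Tex genes, 9 of 45 members passed 2-fold between genotypes in PA and 5 of 44 in RO, against 27% of genes with a symbol in each. Between stages, 2 of 44 passed in WT and 2 of 45 in KO, against 23.2% and 14%. The peaks then numbered 45, 59, 47 and 54 in WT PA, KO PA, WT RO and KO RO. A peak in all lists was left in 14 of the 45 members, against 34.4% of all genes with a peak. With a CPM of 10 or more, 2 of 57 members passed 2-fold between stages in KO, against 7.8% of genes with a symbol. With a reciprocal overlap of 50%, the shares of WT peaks with a KO counterpart were 61.8% in PA and 42.5% in RO, and those of KO peaks with a WT counterpart 46.7% and 37.8%. Counting any peak of the same gene gave 91.1% (KO PA), 80.8% (WT RO) and 72% (KO RO); a fold of at least 5 gave 49.3% for WT RO. These changes follow from what each rule keeps. With the KO list names exchanged, an alternative chosen after seeing the data, 77.9% of WT PA and 63% of WT RO peaks had a KO counterpart. Of 35 ratios past 2-fold, none changed sign in 140 alternatives; under 2-fold came Rad54l (-0.74) and Radil (-0.89) in PA with total counts and Fance (-0.96, RO over PA in KO) with a prior count of 5. No paired analysis was made, because each group held 1 library and no replicate numbers pair the libraries. A model with the cell fraction as a block, which would treat PA and RO as replicates and leave 1 residual degree of freedom, was not fitted.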
